A study of Mus musculus with 12 samples.

Results

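The annexin genes and 2 of their S100 partners were examined in RNA from neural stem cells (NSCs) of the mouse subventricular zone (SVZ), the germinal layer along the lateral ventricle. The 10 genes are Anxa1, Anxa2, Anxa3, Anxa4, Anxa5, Anxa6, Anxa7, Anxa11, S100a10 and S100a11, out of 37991 genes counted. They were chosen from earlier results of these same 12 libraries, so their values are a description, their fold changes carry no p-value here, and counts of them are read for nothing beyond what they are. All 10 passed the filter on low counts.

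The 4 groups, each of 3 libraries, were Gli1Null cuprizone, Gli1Het cuprizone, Gli1Null control and Gli1Het control. Gli1Null NSCs were Gli1CreERT2/CreERT2;RCEfx/fx and Gli1Het NSCs were Gli1CreERT2/+;RCEfx/fx, on the C57BL/6 strain, and the CreERT2 allele is inserted in Gli1 itself, so that the homozygote lacks the gene in the whole animal. Every animal of every group therefore had a CreERT2 copy and the RCE reporter, and was given 5 mg of tamoxifen in each of 4 injections at 10 weeks of age, which labels Gli1-expressing cells and their progeny with GFP. Cuprizone animals then ate 0.2% cuprizone in their chow for 3 weeks, which chelates copper, kills oligodendrocytes and strips myelin, and control animals ate normal chow. Each library came from GFP+ cells sorted from the SVZ of 2 pooled animals, 1 male and 1 female, so any spread given is a spread between pools. The descendants of Gli1-expressing cells keep the GFP, and a sorted pool can therefore hold more than stem cells.

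Annexins are cytosolic proteins that attach to acidic membrane phospholipids when calcium rises, and they act in membrane repair, vesicle traffic and the linking of membrane to actin. S100 proteins are small dimers, most of them calcium-binding. The pair that joins annexins here, S100a10 (p11) and S100a11, bridges annexin molecules and so brings membranes together. In the brain, annexins are known mostly from astrocytes and microglia, where several of them are raised in reactive cells.

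Depth was 13752801 to 32468063 counts in genes per library. A level is given as CPM, the counts of a gene per 1000000 counts in genes of its library, and 3 values in a row are those of replicates 1, 2 and 3. Gli1 itself was at 0.626, 0.469 and 0.739 CPM in Gli1Null cuprizone NSCs, against 21.5, 0.837 and 3.84 CPM in Gli1Het cuprizone NSCs, and at 0.362, 0.389 and 0.293 CPM in Gli1Null control NSCs, against 8.65, 18.3 and 17.8 CPM in Gli1Het control NSCs. The library labelled Gli1Het cuprizone replicate 2 thus lay near the Gli1Null level, and the results of the 10 genes are given with and without it. Of the neural stem cell and astrocyte markers, 10 of 10 were at 1 CPM or more in every library. Neuroblast markers, whose transcripts mark the young neurons made by these stem cells, summed to 3260 to 3460 CPM in Gli1Null cuprizone NSCs, 365 to 3210 CPM in Gli1Het cuprizone NSCs, 5300 to 5490 CPM in Gli1Null control NSCs and 4730 to 6390 CPM in Gli1Het control NSCs. Sample numbers under 10 in the labels, whose meaning is not stated, occurred only in replicates 2 and 3 of both Gli1Het groups.

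The annexin genes and their S100 partners were higher in Gli1Het cuprizone NSCs than in Gli1Het control NSCs, by a log2 fold change of 0.66 for Anxa6 up to 8.15 for Anxa3. In Gli1Null NSCs the fold changes between the same diets ran from 0.06 for S100a10 to 2.79 for Anxa3. Passing the test means an adjusted p under 0.05 in edgeR's quasi-likelihood fit over 17623 genes. Between the diets in Gli1Het NSCs, 10 of 10 passed and were higher, where 18.8% of all genes tested passed and were higher and 15.3% passed and were lower. The median log2 fold change was 2.35 over the 10 genes and 0.02 over all genes tested. With Gli1Het cuprizone replicate 2 left out, 10 of 10 still passed, beside 4835 of all genes against 5995 with it, and their median was 1.43, with a range of 0.53 to 7.01.

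**Figure D1:**
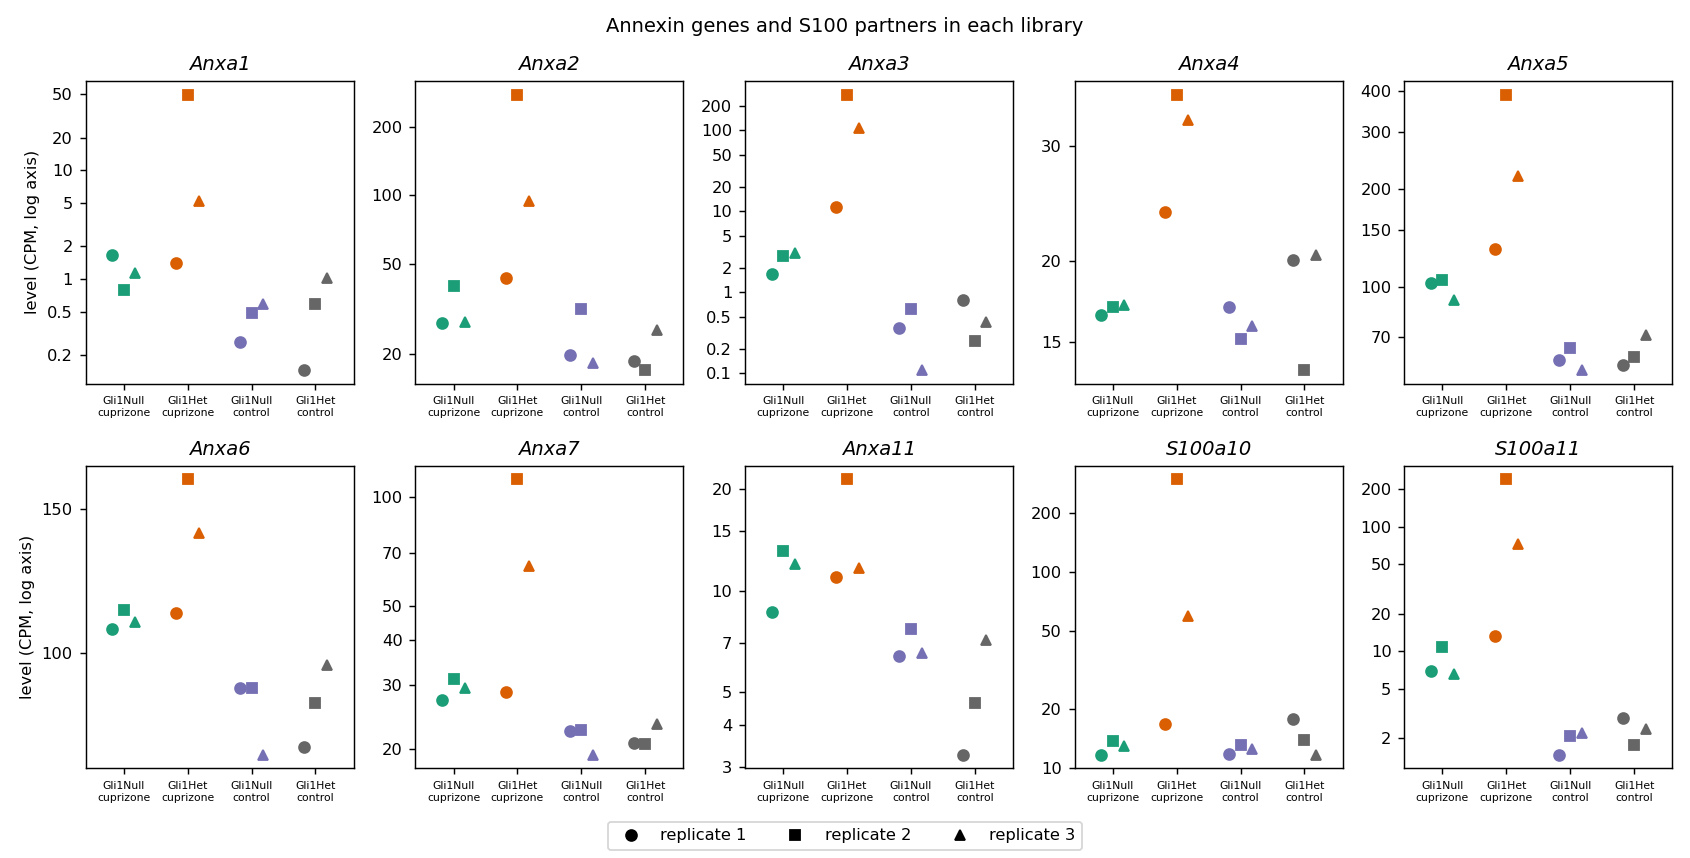
Level of each of the 10 genes (CPM, log axis, a range of its own per panel) in each library, with the groups along the x axis and the marker shape giving the replicate. In every panel the highest point is Gli1Het cuprizone replicate 2, and the Gli1Het cuprizone points are ordered replicate 2, 3, 1 from high to low. The 6 control points spread most on the log axis for Anxa1 (0.145 to 1.01 CPM) and Anxa3 (0.11 to 0.8 CPM).

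The first pair is annexin A1 with S100a11. Anxa1 encodes a glucocorticoid-induced protein that restrains inflammation through formyl peptide receptors and was first known as an inhibitor of phospholipase A2. It was counted at 1.39, 49.6 and 5.26 CPM in Gli1Het cuprizone NSCs, against 0.145, 0.588 and 1.01 CPM in Gli1Het control NSCs. The same gene was at 1.66, 0.794 and 1.14 CPM in Gli1Null cuprizone NSCs, against 0.263, 0.487 and 0.586 CPM in Gli1Null control NSCs. No cuprizone library overlapped the controls of its genotype, but replicate 1 of Gli1Het cuprizone NSCs lay within the range of Gli1Null cuprizone NSCs. Its log2 fold change was 4.90 ± 1.11 (SE) between the diets in Gli1Het NSCs, 2.42 ± 0.666 without Gli1Het cuprizone replicate 2, and 1.46 ± 1.07 in Gli1Null NSCs. Anxa1 counts were few outside that library: the lowest control held 2 counts, a level of 0.145 CPM with an exact 95% Poisson interval of 0.0176 to 0.525 CPM, which covers counting error only.

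S100a11 encodes the partner that binds the N-terminal end of annexin A1. Its levels were 13.2, 240 and 72.3 CPM in Gli1Het cuprizone NSCs, against 2.91, 1.76 and 2.38 CPM in Gli1Het control NSCs. In Gli1Null NSCs they were 6.88, 10.8 and 6.59 CPM on cuprizone, against 1.48, 2.08 and 2.20 CPM on the control diet. The groups formed a ladder without overlap: all Gli1Het cuprizone libraries lay above all Gli1Null cuprizone libraries, and these above all 6 controls. The log2 fold change between the diets was 5.53 ± 0.833 in Gli1Het NSCs, 4.19 ± 0.547 without the library that stood apart, and 2.1 ± 0.745 in Gli1Null NSCs.

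The second pair is annexin A2 with S100a10, which form a heterotetramer at the plasma membrane that binds actin, organizes Ahnak and concentrates plasminogen with its activator tPA. Anxa2 was at 43.3, 277 and 94.2 CPM in Gli1Het cuprizone NSCs, against 18.8, 17.1 and 25.6 CPM in Gli1Het control NSCs. It was at 27.4, 40.0 and 27.7 CPM in Gli1Null cuprizone NSCs, against 19.8, 31.6 and 18.3 CPM in Gli1Null control NSCs. The diets overlapped in Gli1Null NSCs and not in Gli1Het NSCs. The log2 fold change of Anxa2 was 2.74 ± 0.531 in Gli1Het NSCs, 1.74 ± 0.318 without Gli1Het cuprizone replicate 2, and 0.47 ± 0.501 in Gli1Null NSCs. Anxa2 lies on chromosome 9 from 69453620 to 69491795 on the + strand (mm10, GENCODE M21), where it overlaps Mir3109 and, on the other strand, Gm16144. Reads that fit overlapping genes alike may be missing from the counts, since 0.349% to 0.391% of unique reads were set apart as ambiguous. The strand setting of the counting is not given in the sources used here.

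S100a10 encodes p11, which also carries ion channels and serotonin receptors to the cell surface. It was counted at 16.7, 299 and 59.7 CPM in Gli1Het cuprizone NSCs, against 17.8, 13.9 and 11.7 CPM in Gli1Het control NSCs. Gli1Null NSCs held 11.7, 13.7 and 12.9 CPM on cuprizone, against 11.8, 13.1 and 12.5 CPM on the control diet. Replicate 1 of Gli1Het cuprizone NSCs lay inside the range of its controls, and S100a10 was the only one of the 10 genes whose diets overlapped in Gli1Het NSCs. The log2 fold change was 3.11 ± 0.741 in Gli1Het NSCs, 1.40 ± 0.374 without replicate 2 and 0.06 ± 0.694 in Gli1Null NSCs. Fitted without the 4 libraries with sample numbers under 10, it was -0.12, so the higher S100a10 level rests on replicates 2 and 3.

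Per kilobase of exon, the S100a10 level was 1.18, 3.32 and 1.95 times the Anxa2 level in Gli1Het cuprizone NSCs, against 2.91, 2.49 and 1.40 times in Gli1Het control NSCs. The ratio was 1.31, 1.05 and 1.43 in Gli1Null cuprizone NSCs, against 1.84, 1.28 and 2.09 in Gli1Null control NSCs. The transcripts of the A2 complex subunits were thus within 4-fold of each other in all 12 libraries, and the diets overlapped in this ratio in both genotypes. Exon length was that of all annotated exons merged, 1212 bases for S100a10 and 3731 for Anxa2. In CPM without that length the ratio was 0.342 to 1.08, so which transcript was higher depends on the length used. Protein was not measured.

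**Figure D2:**
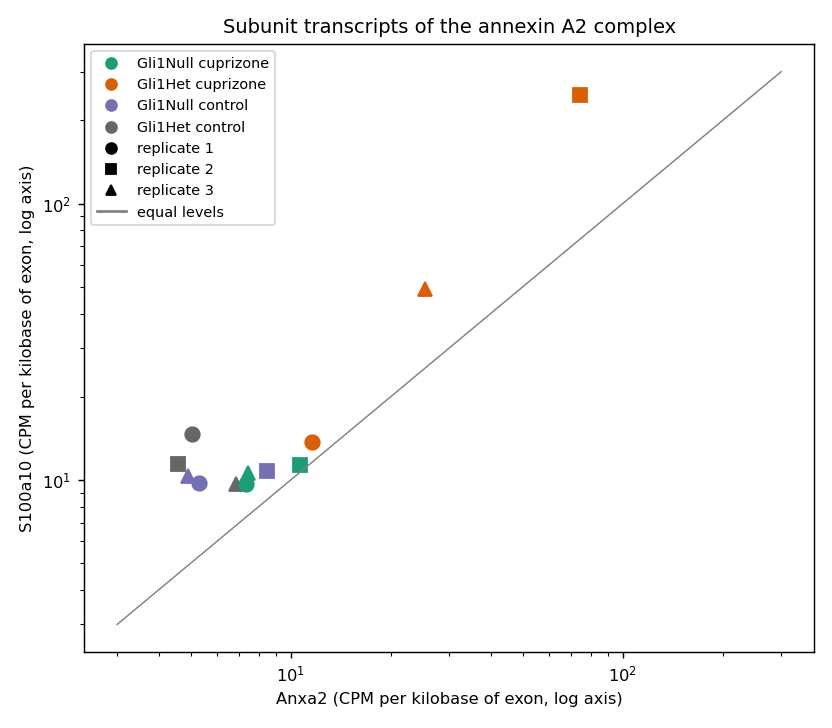
S100a10 against Anxa2, both in CPM per kilobase of exon on log axes, with 1 point per library, colour for the group and marker shape for the replicate; the grey line marks equal levels. On this scale, which depends on the exon lengths used, all 12 points lie above the line. Replicates 2 and 3 of Gli1Het cuprizone NSCs lie to the upper right, with ratios of 3.32 and 1.95.

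Sequences from 250 bases before to 50 after the start of a gene (RefSeq, GRCm38.p6) were found for 7 of the 10 genes, in 9 entries, and were not found for Anxa3, Anxa6 and S100a10. Those of S100a11, Anxa2 and Anxa1 are shown because these genes of the annexin and S100 pairs had some of the larger fold changes. Capitals mark AP-1 motifs (TGANTCA), TEAD motifs (GGAATG, which reads CATTCC on the other strand) and TATA boxes (TATAAA), each searched on both strands. The S100a11 stretch is chr3:93520246-93520545 on the + strand, that of Anxa2 is chr9:69453433-69453732 on the + strand and that of Anxa1 is chr19:20390622-20390921 on the - strand.
S100a11: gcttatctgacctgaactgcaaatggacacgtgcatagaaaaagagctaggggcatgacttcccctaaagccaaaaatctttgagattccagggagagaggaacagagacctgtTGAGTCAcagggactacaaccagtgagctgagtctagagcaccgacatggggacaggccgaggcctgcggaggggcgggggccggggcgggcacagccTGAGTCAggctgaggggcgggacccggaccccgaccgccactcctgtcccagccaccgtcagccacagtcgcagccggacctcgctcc
Anxa2: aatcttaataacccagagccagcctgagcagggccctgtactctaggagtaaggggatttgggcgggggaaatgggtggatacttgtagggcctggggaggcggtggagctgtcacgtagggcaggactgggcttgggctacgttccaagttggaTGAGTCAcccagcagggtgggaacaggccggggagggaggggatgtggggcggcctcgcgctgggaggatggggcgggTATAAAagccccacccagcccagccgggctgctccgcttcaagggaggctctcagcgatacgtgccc
Anxa1: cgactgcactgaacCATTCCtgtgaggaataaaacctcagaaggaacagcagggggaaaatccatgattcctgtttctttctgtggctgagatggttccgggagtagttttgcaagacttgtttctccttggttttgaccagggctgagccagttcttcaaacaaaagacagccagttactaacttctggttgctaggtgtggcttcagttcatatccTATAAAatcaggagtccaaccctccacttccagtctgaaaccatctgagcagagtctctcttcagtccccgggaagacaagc
An AP-1 motif was in the sequences of S100a11, at 2 places, and Anxa2, and in 7.81% of all 32851 promoter entries. The TEAD motif was in that of Anxa1 alone of the 7 genes, and in 14.7% of all entries. A TATA box was in those of Anxa1 and Anxa2, and in 13.6% of all entries. The Sp1 motif GGGCGG, not capitalized, was in those of Anxa2, Anxa4, Anxa7, Anxa11 and S100a11, and in 35.7% of all entries, while CCAAT was in none of the 7 and in 37.4% of all entries. These are matches of letters, and binding was not measured.

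Anxa3 had the largest fold change of the 10 genes in all comparisons between cuprizone and control NSCs. Its product is an annexin of phagocytes and of microglia, and its role in stem cells is less settled. In Gli1Het cuprizone NSCs it was at 11.3, 275 and 108 CPM, against 0.800, 0.252 and 0.433 CPM in Gli1Het control NSCs. In Gli1Null cuprizone NSCs it was at 1.69, 2.85 and 3.08 CPM, against 0.362, 0.616 and 0.11 CPM in Gli1Null control NSCs. The 3 sets were separated: Gli1Het cuprizone on top, Gli1Null cuprizone next and all 6 controls under 1 CPM. The log2 fold change between the diets was 8.15 ± 1.09 in Gli1Het NSCs, 7.01 ± 0.861 without Gli1Het cuprizone replicate 2, and 2.79 ± 1.01 in Gli1Null NSCs. The control levels rest on 3 to 19 counts, and the lowest, 0.11 CPM, has an exact 95% Poisson interval of 0.0227 to 0.321 CPM. Anxa3 lies on chromosome 5 from 96793339 to 96845966 and no other gene overlaps it.

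Anxa5 and Anxa6 were the most abundant annexins of the control NSCs. Anxa5 encodes annexin A5, which forms lattices on exposed phosphatidylserine and helps to seal torn membranes, and Anxa6 encodes the only annexin with a doubled core, which joins membrane to actin and takes part in cholesterol traffic. Anxa5 was at 131, 390 and 219 CPM in Gli1Het cuprizone NSCs, against 57.6, 60.8 and 71.4 CPM in Gli1Het control NSCs. It was at 103, 105 and 91.1 CPM in Gli1Null cuprizone NSCs, against 59.6, 65.1 and 55.6 CPM in Gli1Null control NSCs. As with S100a11, every Gli1Het cuprizone library lay above every Gli1Null cuprizone library, and these above the controls. The log2 fold change was 1.95 ± 0.294 in Gli1Het NSCs, 1.46 ± 0.175 without the library that stood apart and 0.76 ± 0.286 in Gli1Null NSCs.

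Anxa6 was at 112, 163 and 140 CPM in Gli1Het cuprizone NSCs, against 76.9, 86.8 and 96.6 CPM in Gli1Het control NSCs. It was at 107, 113 and 109 CPM in Gli1Null cuprizone NSCs, against 90.6, 90.6 and 75.2 CPM in Gli1Null control NSCs. The cuprizone libraries of the genotypes overlapped, and both lay above the controls. The log2 fold change of 0.66 ± 0.142 in Gli1Het NSCs was the smallest of the 10 genes, and it was 0.53 ± 0.126 without Gli1Het cuprizone replicate 2 and 0.39 ± 0.141 in Gli1Null NSCs.

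Anxa4, Anxa7 and Anxa11 act in secretion and membrane traffic. Annexin A4 is an epithelial annexin that regulates chloride conductance, annexin A7 (synexin) promotes fusion of secretory granules, and annexin A11 tethers RNA granules to lysosomes for transport along axons. Anxa7 was at 28.8, 112 and 64.3 CPM in Gli1Het cuprizone NSCs, against 20.8, 20.6 and 23.5 CPM in Gli1Het control NSCs. It was at 27.3, 31.2 and 29.5 CPM in Gli1Null cuprizone NSCs, against 22.4, 22.6 and 19.3 CPM in Gli1Null control NSCs. Cuprizone and control libraries did not overlap in either genotype, and the log2 fold change was 1.65 ± 0.346 in Gli1Het NSCs (1.10 ± 0.245 without replicate 2) and 0.48 ± 0.338 in Gli1Null NSCs.

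Anxa11 was at 11, 21.4 and 11.7 CPM in Gli1Het cuprizone NSCs, against 3.27, 4.66 and 7.14 CPM in Gli1Het control NSCs. It was at 8.67, 13.1 and 12.0 CPM in Gli1Null cuprizone NSCs, against 6.42, 7.72 and 6.55 CPM in Gli1Null control NSCs. For this gene the cuprizone groups of the genotypes were interleaved. Its log2 fold change was 1.53 ± 0.317 in Gli1Het NSCs (1.16 ± 0.281 without replicate 2) and 0.73 ± 0.309 in Gli1Null NSCs.

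Anxa4 was at 23.8, 36.0 and 32.9 CPM in Gli1Het cuprizone NSCs, against 20.1, 13.6 and 20.4 CPM in Gli1Het control NSCs. It was at 16.5, 17.0 and 17.1 CPM in Gli1Null cuprizone NSCs, against 17.0, 15.2 and 15.9 CPM in Gli1Null control NSCs. In Gli1Null NSCs the diets overlapped, and the log2 fold change was 0.77 ± 0.189 in Gli1Het NSCs (0.64 ± 0.195 without replicate 2) and 0.10 ± 0.188 in Gli1Null NSCs.

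In Gli1Het NSCs, cuprizone and control libraries did not overlap for 9 of the 10 genes, where 21.7% of all genes tested did not overlap and were higher. The Gli1Het libraries with sample numbers under 10 were 2 cuprizone and 2 control. Those with numbers of 10 or more were 1 cuprizone and 1 control. The ratio of the cuprizone level to the control level was 559 within the first set and 14.1 within the second for Anxa3. For S100a11 it was 75.4 and 4.54, for Anxa5 4.61 and 2.27, for Anxa6 1.65 and 1.46, and for S100a10 14 and 0.938, in the same order. What a sample number stands for was not tested.

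Within Gli1Het cuprizone NSCs, replicate 2 was above replicate 3 and replicate 3 above replicate 1 for 10 of 10 genes, an order held by 27.3% of all genes tested and by 60.4% of the genes that passed and were higher in Gli1Het cuprizone NSCs. The 10 genes together summed to 393, 1860 and 807 CPM there, against 219, 220 and 260 CPM in Gli1Het control NSCs. In Gli1Null NSCs the sum was 311, 348 and 310 CPM on cuprizone, against 230, 249 and 206 CPM on the control diet. The spread among the Gli1Het cuprizone libraries was therefore larger than the step between the diets in Gli1Null NSCs.

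**Figure D3:**
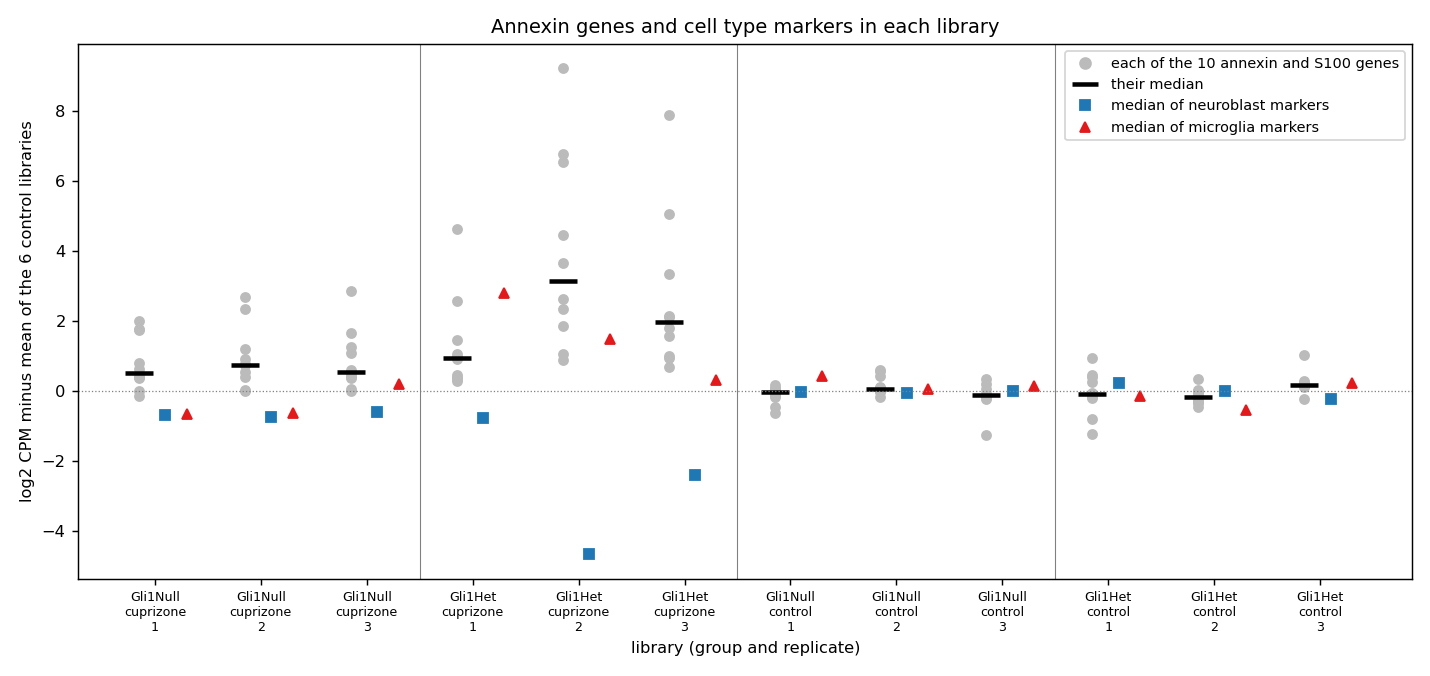
Log2 CPM of each of the 10 genes in each library minus its mean over the 6 control libraries (grey points, median as a black bar), beside the medians of the neuroblast markers (blue squares) and of the microglia and macrophage markers (red triangles). In Gli1Het cuprizone replicates 1, 2 and 3 the median of the 10 genes was 0.95, 3.15 and 1.97, that of the neuroblast markers -0.75, -4.65 and -2.39, and that of the microglia markers 2.82, 1.5 and 0.33.

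Markers of other cell types moved with the same groups. Between the diets in Gli1Het NSCs, 8 of 10 neuroblast markers passed and were lower in Gli1Het cuprizone NSCs, among them Dlx1, Dlx2 and Sox11, and 7 of 13 microglia and macrophage markers passed and were higher, among them C1qa, Csf1r and Tyrobp. Without Gli1Het cuprizone replicate 2, 10 of 10 neuroblast markers were lower and 5 of 13 microglia markers higher. Of the neural stem cell and astrocyte markers 4 of 10 passed and were higher, with and without that library: Aldoc, Gfap, Slc1a3 and Vim in the fit with it. Their list summed to 7790, 10100 and 10700 CPM in Gli1Het cuprizone NSCs, against 3580, 5360 and 6400 CPM in Gli1Het control NSCs, and to 7190 to 8670 CPM in Gli1Null cuprizone NSCs, against 4970 to 5640 CPM in Gli1Null control NSCs. The microglia markers summed to 181, 218 and 160 CPM in Gli1Het cuprizone NSCs, against 70.7 to 93.0 CPM in Gli1Het control NSCs, and to 99.9 to 118 CPM in Gli1Null cuprizone NSCs, against 68.5 to 94.6 CPM in Gli1Null control NSCs. Across the Gli1Het cuprizone libraries the microglia median was highest in replicate 1, where the 10 genes were lowest, but the microglia sum was highest in replicate 2, where they were highest. The neuroblast median was lowest in replicate 2. Ependymal markers passed and were higher for 5 of 8 and summed to 331 to 688 CPM in Gli1Het cuprizone NSCs, against 111 to 223 CPM in Gli1Het control NSCs. Endothelial markers, of which 3 of 9 passed and were lower, summed to no more than 21.9 CPM in any library, and all 6 neutrophil markers were under 1 CPM in all libraries. Of the remaining lists, 2 of 10 mural and fibroblast markers and 1 of 4 oligodendrocyte precursor markers were higher, 2 of 10 oligodendrocyte and 2 of 5 neuron markers were lower, and 0 of 5 choroid plexus markers passed. Without replicate 2 the ependymal and endothelial counts were as before, 4 oligodendrocyte and 3 neuron markers were lower, and 1 mural and 1 precursor marker passed in each direction. In Gli1Null cuprizone NSCs, Pdgfrb and Foxj1 passed and were higher. The part of these other cells in the annexin levels was not tested, and in sorted bulk cells a smaller number of cells of a type and less RNA per cell cannot be told apart.

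Between the diets in Gli1Null NSCs, 0 of the 10 genes passed, where 3.37% of all genes tested passed and were higher and 0.25% passed and were lower. Before adjustment, 5 of the 10 and 3188 of all genes had an edgeR p under 0.05. DESeq2 called 1 of the 10 and 1370 of all genes, edgeR on the 2 groups alone 7 and 4126, and limma with library quality weights 5 and 4634, against 638 of all genes in the 12-library edgeR fit. Without Gli1Het cuprizone replicate 2, whose spread enters the pooled fit, 4 passed (Anxa3, Anxa5, Anxa6 and S100a11), beside 1927 of all genes. All 10 fold changes were positive, with a median of 0.60 against -0.02 over all genes. The diets did not overlap for 7 of the 10 genes (Anxa1, Anxa3, Anxa5, Anxa6, Anxa7, Anxa11 and S100a11), where 19.8% of all genes tested did not overlap and were higher, and they overlapped for Anxa2, Anxa4 and S100a10.

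On cuprizone, the 10 genes had negative log2 fold changes in Gli1Null NSCs against Gli1Het NSCs, from -5.64 ± 0.907 for Anxa3 to -0.28 ± 0.141 for Anxa6, with a median of -1.66. In this comparison 0 of 10 passed, where 0.0227% of all genes tested passed and were higher and 0.017% passed and were lower. Before adjustment, 8 of the 10 and 4388 of all genes had an edgeR p under 0.05. DESeq2 called 8 of the 10 and 1701 of all genes, limma with library quality weights 9 and 6674, edgeR with no filter on low counts 6 and 469, and edgeR on the 2 groups alone 0 and 1, against 7 of all genes in the 12-library edgeR fit. Gli1Null cuprizone libraries were all lower than Gli1Het cuprizone libraries for 6 genes (Anxa2, Anxa3, Anxa4, Anxa5, S100a10 and S100a11), where 16.8% of all genes tested did not overlap and were lower, and it was 6 as well without Gli1Het cuprizone replicate 2.

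The log2 fold changes of that comparison were -3.90 ± 1.03 for Anxa1, -3.69 ± 0.744 for S100a11, -3.24 ± 0.742 for S100a10 and -2.07 ± 0.515 for Anxa2. Without Gli1Het cuprizone replicate 2 they were -1.40 ± 0.633 for Anxa1, -2.34 ± 0.501 for S100a11, -1.52 ± 0.372 for S100a10 and -1.06 ± 0.315 for Anxa2. Over the 10 genes the median was then -0.90, with a range of -4.50 for Anxa3 to 0.04 for Anxa11, and Anxa3 alone of the 10 passed, beside 37 of all genes. Leaving out Gli1Het cuprizone replicate 1 instead, the library of that group with the lowest annexin levels, 9 of 10 passed, beside 5015 of all genes. This comparison shares its Gli1Het cuprizone libraries with that of the diets in Gli1Het NSCs, so the values of both move together. The size of the difference between the genotypes depended on which Gli1Het library was kept.

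**Figure D4:**
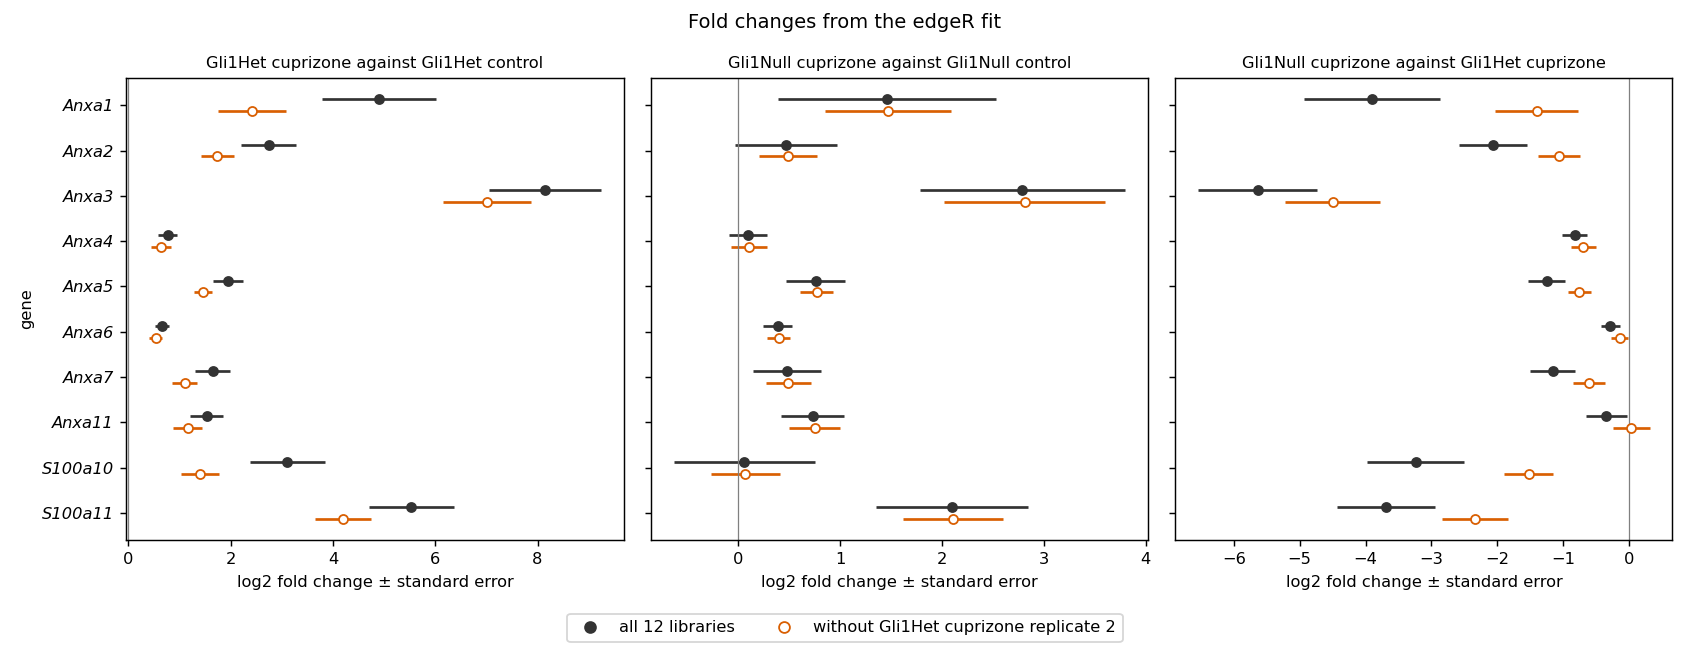
Log2 fold change ± standard error of the 10 genes in the comparison of the diets in Gli1Het NSCs, of the diets in Gli1Null NSCs, and of Gli1Null with Gli1Het NSCs on cuprizone (x axes differ), from all 12 libraries (filled) and without Gli1Het cuprizone replicate 2 (open). Leaving out that library brought Anxa1 to 2.42 from 4.90 in Gli1Het NSCs and hardly moved any value of the diets in Gli1Null NSCs.

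The difference between the genotypes in the response to the diet was taken as the interaction, the log2 fold change between the diets in Gli1Null NSCs minus that in Gli1Het NSCs. It was negative for all 10 genes, with a median of -1.73, from -5.36 ± 1.56 for Anxa3 to -0.28 ± 0.200 for Anxa6. None of the 10 passed in edgeR, where 0% of all genes tested passed in either direction. Before adjustment, 8 of the 10 and 1591 of all genes had an edgeR p under 0.05. DESeq2 called 1 of the 10 and 62 of all genes, and limma with library quality weights called 6 and 2724. Leaving out Gli1Het cuprizone replicate 2 gave a median of -0.82 with 0 passed, and without replicate 1 of that group 6 passed, beside 1615 of all genes.

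In control NSCs, the log2 fold changes between Gli1Null and Gli1Het ran from -0.46 ± 1.14 for Anxa1 to 0.47 ± 0.313 for Anxa11, with a median of -0.10. In edgeR 0 of the 10 passed, where 0% of all genes tested passed in either direction, and 0 of the 10 and 253 of all genes had an unadjusted p under 0.05. DESeq2 called 0 of the 10 and 1 of all genes. The genotypes overlapped for all 10 genes, where 7.71% of all genes tested did not overlap in either direction. The standard errors were widest for Anxa3, at 1.28, and Anxa1, at 1.14, and they were 0.985 and 0.65 without Gli1Het cuprizone replicate 2, which is in neither group but enters the pooled spread.

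Per kilobase of exon, the order of the genes was alike in the control NSCs and differed in Gli1Het cuprizone NSCs. Anxa5 was highest in all 6 control libraries, at 31.3 to 40.2 CPM per kilobase, followed by Anxa6 and S100a10, and either Anxa1 or Anxa3 was lowest. Gli1Null cuprizone NSCs kept Anxa5 first and Anxa6 second, at group means of 56.1 and 37.4 CPM per kilobase, with S100a11 next at 15.8. In Gli1Het cuprizone replicates 2 and 3 the highest was S100a11, at 469 and 141 CPM per kilobase, while in replicate 1 it was Anxa5 at 73.8. This order rests on the merged exon length, 511 bases for S100a11 and 1777 for Anxa5. In CPM, Anxa5 was above S100a11 in replicates 2 and 3, at 390 and 219 against 240 and 72.3. Group means in Gli1Het cuprizone NSCs were 212 CPM per kilobase for S100a11, 139 for Anxa5, 103 for S100a10, 47.2 for Anxa6, 37.0 for Anxa2, 36.2 for Anxa3, 11.4 for Anxa7, 6.65 for Anxa4, 6.44 for Anxa1 and 3.56 for Anxa11. Those means are dominated by replicate 2, and neighbours among them do not differ beyond the spread of the libraries.

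The other annexin genes were Anxa8, Anxa9, Anxa10 and Anxa13. Anxa8, an annexin of stratified epithelia, was at 2.39, 11.4 and 3.98 CPM in Gli1Het cuprizone NSCs, against 0, 0.210 and 0.938 CPM in Gli1Het control NSCs. Gli1Null NSCs had 0.0939, 0.614 and 0.431 CPM on cuprizone, against 0, 0.324 and 0 CPM on the control diet. It rose in Gli1Het cuprizone NSCs, by a log2 fold change of 3.81 ± 1.10 (edgeR, Benjamini-Hochberg adjusted p = 0.0224), and was higher than every control there in 3 of 3 libraries. The value was 2.90 without Gli1Het cuprizone replicate 2 (adjusted p = 0.0652 in edgeR).

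Anxa9, which lacks the calcium-binding sites of other annexins, was at 2.31 to 2.63 CPM in Gli1Het cuprizone NSCs, against 2.27 to 2.76 CPM in Gli1Het control NSCs, with a log2 fold change of -0.04 ± 0.232 (edgeR, adjusted p = 0.914). It overlaps Mindy1 on the other strand and 6330562C20Rik. Anxa10 had 0 counts in all 12 libraries, which allows up to 0.0924 to 0.218 CPM, and Anxa13 was at 0.0361 CPM, 1 count, in 1 Gli1Null cuprizone library and 1 Gli1Het control library. Of the 4 genes outside the 10, then, Anxa8 alone passed in any comparison.

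Genes that work with annexins were taken as lists, which were also drawn up with earlier results of these libraries known. Between the diets in Gli1Het NSCs, 34 of the 67 list genes tested passed and were higher and 4 passed and were lower, beside the 18.8% and 15.3% of all genes. Without Gli1Het cuprizone replicate 2, 28 passed in either direction, beside 4835 of all 17623 genes tested. In Gli1Null NSCs 3 passed, all higher (Klf9, Megf10 and Plscr4), beside the 3.37% of all genes tested that passed and were higher. There 21 had an unadjusted p under 0.05, beside 3188 of all genes. Without Gli1Het cuprizone replicate 2, 14 passed, beside 1927 of all genes. In the comparisons between the genotypes and in the interaction 0 passed in edgeR, with or without that library. An unadjusted p under 0.05 was held by 27 on cuprizone, 2 on the control diet and 13 in the interaction. Of all genes it was held by 4388, 253 and 1591, in the same order.

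Other S100 genes rose in Gli1Het cuprizone NSCs for 4 of 8 tested (3 without replicate 2), with a median log2 fold change of 0.59. S100a6 (calcyclin), which binds several annexins, was at 65.7, 215 and 87.1 CPM in Gli1Het cuprizone NSCs, against 33.7, 40.0 and 49.0 CPM in Gli1Het control NSCs, a log2 fold change of 1.57 ± 0.360 (edgeR, adjusted p = 0.0088), and of 0.89 without replicate 2 (adjusted p = 0.00801). S100a1, a regulator of calcium release in muscle, had a log2 fold change of 0.77 ± 0.188 (edgeR, adjusted p = 0.0115), S100a16 one of 0.52 ± 0.142 (edgeR, adjusted p = 0.0175) and S100a7a one of 1.43 ± 0.460 (edgeR, adjusted p = 0.0332). S100a7a was under 1.1 CPM in every library. Of these 4, S100a7a lost its call without replicate 2 (adjusted p = 0.0862 in edgeR). In Gli1Null NSCs 0 of 8 passed between the diets, with a median of 0.35.

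Annexin binding partners and membrane repair genes rose for 13 of 21 tested in Gli1Het cuprizone NSCs (9 without replicate 2) and fell for 1. The scaffold Ahnak, held at the membrane by the A2 complex, was at 46.4, 143 and 60.8 CPM in Gli1Het cuprizone NSCs, against 9.16, 16.1 and 22.5 CPM in Gli1Het control NSCs, a log2 fold change of 2.37 ± 0.420 (edgeR, adjusted p = 0.00278), and of 1.73 without replicate 2 (adjusted p = 0.00242). Myof (myoferlin), a ferlin of membrane fusion and repair, was at 1.19, 13.6 and 5.76 CPM in Gli1Het cuprizone NSCs, against 0.0727, 0.126 and 0 CPM in Gli1Het control NSCs. Its log2 fold change was 6.67 ± 1.01 (edgeR, adjusted p = 0.00138), on 505 counts against 4, and 5.68 without replicate 2 (adjusted p = 0.00118), on 99 counts against 4. These genes were low in control NSCs and differed most in replicate 2, as the annexins did.

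Ahnak2, the second giant scaffold, had 729 counts in Gli1Het cuprizone NSCs, against 3 in Gli1Het control NSCs, and it passed in edgeR (adjusted p = 0.00174). The ratio of the pooled levels was 269, with an exact 95% counting interval of 91.7 to 1310. Ahnak2 was at 1.13, 21.2 and 5.62 CPM in Gli1Het cuprizone NSCs. Without replicate 2 the ratio was 71.7 (interval 23.8 to 354), and the gene passed in edgeR as well (adjusted p = 0.00139). Both intervals cover counting error only and leave out the spread between pools. Smpd1, the acid sphingomyelinase released at membrane wounds, had a log2 fold change of 0.90 ± 0.157 (edgeR, adjusted p = 0.00252). The others that rose were Capn1, Capn2, Capns1, Cav1, Dysf, Gca, Pdcd6, Ptrf (the caveolar coat gene Cavin1) and Sri. Tsg101, of the ESCRT machinery, was the gene that fell, at a log2 fold change of -0.49 ± 0.112 (edgeR, adjusted p = 0.00858). In Gli1Null NSCs 0 of 21 passed between the diets, and 4 passed without Gli1Het cuprizone replicate 2.

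The plasminogen system, which the A2 complex assembles at the cell surface, had 3 of 6 genes tested that rose in Gli1Het cuprizone NSCs (2 without replicate 2) and 0 that fell. Plat, which encodes tPA, was at 39.2, 482 and 230 CPM in Gli1Het cuprizone NSCs, against 20.4, 18.4 and 17.1 CPM in Gli1Het control NSCs. Its log2 fold change was 3.74 ± 0.643 (edgeR, adjusted p = 0.00246), and 2.85 (adjusted p = 0.00207) without replicate 2. In Gli1Null NSCs Plat was at 17.6, 22.7 and 23.2 CPM on cuprizone, against 12.9, 21.4 and 17.8 CPM on the control diet, which overlapped. Plat and S100a10 were thus both highest in replicates 2 and 3 of Gli1Het cuprizone NSCs, while replicate 1 lay above its controls for Plat and not for S100a10. The order replicate 2, 3, 1 was held by 60.4% of the genes that passed and were higher in Gli1Het cuprizone NSCs.

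Plaur, the urokinase receptor, had a log2 fold change of 4.45 ± 0.928 (edgeR, adjusted p = 0.00572) in Gli1Het NSCs, at up to 7.86 CPM on cuprizone and no more than 0.291 CPM on the control diet, and one of 3.19 without replicate 2 (adjusted p = 0.0158). Serpine2, an inhibitor of these proteases, had one of 1.30 ± 0.358 (edgeR, adjusted p = 0.019), and lost its call without replicate 2 (adjusted p = 0.0537 in edgeR). Eno1, a plasminogen-binding glycolytic enzyme, did not pass, at 0.36 ± 0.160 (edgeR, adjusted p = 0.1). In Gli1Null NSCs 0 of 6 passed between the diets.

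Receptors of annexin A1 and genes of eicosanoid synthesis were mostly too low to test, 3 of 10 being tested, and 0 of these passed in Gli1Het NSCs. Ptges, the prostaglandin E synthase, had a log2 fold change of 0.58 ± 0.347 (edgeR, adjusted p = 0.206), Pla2g4a, the cytosolic phospholipase A2, one of 1.37 ± 0.924 (edgeR, adjusted p = 0.262) and Ptgs1, cyclooxygenase 1, one of -0.29 ± 0.498 (edgeR, adjusted p = 0.671). In Gli1Null NSCs Ptgs1 had one of -1.79 ± 0.513 (edgeR, adjusted p = 0.0826), and it passed without Gli1Het cuprizone replicate 2 (adjusted p = 0.0367 in edgeR).

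Glucocorticoid receptor targets, listed because Anxa1 is itself induced by glucocorticoids, rose for 6 of 8 tested in Gli1Het cuprizone NSCs (5 without replicate 2) and fell for 1, Fkbp5. Klf9, a Kruppel-like factor, was at 191, 318 and 246 CPM in Gli1Het cuprizone NSCs, against 68.3, 62.3 and 76.1 CPM in Gli1Het control NSCs, a log2 fold change of 1.86 ± 0.176 (edgeR, adjusted p = 0.000161). In Gli1Null NSCs it was at 166, 165 and 169 CPM on cuprizone, against 85.8, 76.3 and 65.1 CPM on the control diet, a log2 fold change of 1.17 ± 0.172 (edgeR, adjusted p = 0.00468). Klf9 thus rose in both genotypes, and on cuprizone its libraries lay close together in Gli1Null NSCs and in the order replicate 2, 3, 1 in Gli1Het NSCs. Tsc22d3 (GILZ) rose by 1.98 ± 0.295 on the log2 scale in Gli1Het NSCs (edgeR, adjusted p = 0.00133), Sgk1, a salt-regulating kinase, by 1.78 ± 0.378 (adjusted p = 0.00632), the clock gene Per1 by 1.33 ± 0.301 (adjusted p = 0.00836) and the phosphatase gene Dusp1 by 0.96 ± 0.308 (adjusted p = 0.0334). Dusp1 lost its call without replicate 2 (adjusted p = 0.0942 in edgeR). Nr3c1, the receptor itself, was the sixth. Fkbp5, a well-known target, fell, so the list did not move as one.

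Genes that expose or recognize phosphatidylserine, the lipid that Anxa5 binds, rose for 7 of 19 tested in Gli1Het cuprizone NSCs and fell for 2, Plscr3 and Xkr4. Without replicate 2, 7 rose and 0 fell. Pros1, protein S, a bridging ligand of TAM receptors, was at 90.3, 202 and 144 CPM in Gli1Het cuprizone NSCs, against 26.3, 31.1 and 44.4 CPM in Gli1Het control NSCs, a log2 fold change of 2.09 ± 0.259 (edgeR, adjusted p = 0.000603). Megf10, an engulfment receptor of astrocytes, rose by 1.10 ± 0.221 on the log2 scale in Gli1Het NSCs (edgeR, adjusted p = 0.00489) and by 1.12 ± 0.220 in Gli1Null NSCs (adjusted p = 0.0197). Gas6, the other TAM ligand, rose by 1.02 ± 0.211 (edgeR, adjusted p = 0.00563) and Itgb5 by 0.84 ± 0.142 (adjusted p = 0.00228) in Gli1Het NSCs. The abundant Mfge8 (edgeR, adjusted p = 0.592) and Tmem30a (adjusted p = 0.192) did not pass.

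Across the 12 libraries the log2 levels of the 10 genes ran closely together, with a median Pearson r of 0.895 over the 45 pairs and a range of 0.576 to 0.988. The median was 0.827 and the range 0.221 to 0.975 without Gli1Het cuprizone replicate 2. The libraries share their groups and the library that stood apart, so these coefficients describe the libraries and carry no test. Among named genes with a mean of 5 CPM or more, those most like Anxa2 were Yy1 (r = 0.993), Capg and Pdpn (both 0.982). Among those close to S100a11 were Rbms1 and Pdlim4 (both 0.991), and among those close to Anxa3 were Dtwd1 (0.981) and Pdlim4 (0.980). S100a10 was most like Msn (0.988), Tubb4b (0.987) and Arl6ip5 (0.982). Anxa5 ran close to Kdsr and Cnn3 (0.992 each). The closest were, for Anxa7, Pdpn and Orai2 (0.993 each) and Vmp1 (0.987), and, for Anxa1, Eda2r (0.991), Lactb2 (0.986) and Ero1l (0.985). The coefficients were lower for Anxa4, with Pigc (0.972), Hdac4 (0.958) and Cotl1 (0.951), and for Anxa11, with Bicc1 (0.964), Ccdc74a and Ttc39b (0.949 each), while Anxa6 was most like Ddo (0.986), Glb1l2 (0.984) and Tctn3 (0.982). Without Gli1Het cuprizone replicate 2 the coefficients of these genes ran from 0.914 to 0.986.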

How the data were processed

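RNA of FACS-sorted GFP+ cells was sequenced as 12 libraries, grouped by the sample labels. The authors' tools, as named in their methods and in the submitters' processing notes, were FastQC 0.11.5 for quality, TopHat2 2.1.1 for alignment to mm10, HTSeq 0.11.1 for counting and DESeq2 1.12 for testing. The values analysed were the raw HTSeq counts deposited by the authors, read by the gene ID held inside each cell. The deposited signal is those counts divided by 1 size factor per library. Scaled back, 100% of its values were whole within 0.01, and edgeR made the same calls on them, a check chosen after seeing the data, as were the marker counts and the Ahnak2 and Myof counts without Gli1Het cuprizone replicate 2. Reads matched to no feature, 54.5% to 58.4% of unique reads, were left out.

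Genes kept by edgeR's filter (minimum count 10, 17623 genes) entered 1 quasi-likelihood fit over the 4 groups with TMM scaling (edgeR 4.0.16, R 4.3.3), and p-values were Benjamini-Hochberg adjusted over all of them. To obtain an SE, the fold change on the log2 scale was divided by the square root of F. The fit was also run on simulated counts with known changes. No library was set apart in that simulation, so it does not cover a library like Gli1Het cuprizone replicate 2. Log2 levels used a prior count of 2. The 10 genes and the lists were chosen with earlier results of these data known. Genes named are all 10, every other annexin, in each list up to 4 with the smallest adjusted p between the diets in Gli1Het NSCs plus up to 2 with the highest level, and the 3 genes most correlated with each of the 10; other list genes were named after their values were seen, and some genes that this rule names are not reported here. Alternatives were DESeq2 1.42.0, its size factors, no TMM, no filter, 2 groups only, limma 3.58.1 with library weights, a replicate block, a sample number term, the fit without the 4 numbers under 10, and each library left out.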

Additional observations from a re-analysis of the deposited data

How the results depend on the processing

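Between the diets in Gli1Het NSCs the number of the 10 genes that passed was 10, and it was 3 with only the 2 groups compared in the fit (Anxa3, Anxa5 and S100a11) and 5 without the 4 libraries with sample numbers under 10, where S100a10 turned to -0.12. Leaving out 1 library at a time gave 10 to 10. Between the diets in Gli1Null NSCs it was 0, and it was 1 in DESeq2, 7 with only the 2 groups, 5 in limma with library weights and 7 without the sample numbers under 10, with 0 to 4 when 1 library was left out. Of these, leaving out Gli1Het cuprizone replicate 1 gave 3 and replicate 2 gave 4. On cuprizone between the genotypes it was 0, and it was 8 in DESeq2, 6 with no filter and 9 in limma, with 0 to 9 when 1 library was left out. The interaction gave 0, 1 in DESeq2 and 6 in limma, with 0 to 6 when 1 library was left out. Over all genes, only the 2 groups gave 901 in Gli1Het NSCs, against 5995, with 88.2% of them higher against 55.1%, and 4126 in Gli1Null NSCs, against 638. Limma called 10013, 4634, 6674 and 2724 genes in the 2 diet comparisons, the cuprizone groups and the interaction, and DESeq2 called 6961, 1370, 1701 and 62. Without Gli1Het cuprizone replicate 1 the cuprizone groups differed in 5015 genes and the interaction in 1615, against 7 and 0. Without replicate 3 of that group 3905 genes passed in Gli1Het NSCs. Without the sample numbers under 10 the diets differed in 2651 genes in Gli1Het NSCs and 4137 in Gli1Null NSCs, and a sample number term gave 1124 in Gli1Null NSCs. No filter gave 469 genes between the cuprizone groups, of which 40.9% were higher, against 57.1% of 7. The cause was not tested.

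The replicate numbers did not pair the libraries, since the deviations of same-numbered libraries correlated at -0.109 to 0.12. With the replicate block, 10 of the 10 genes passed between the diets in Gli1Het NSCs and 0 in each other comparison, and 5223, 400, 1, 0 and 0 of all genes passed in the 5 comparisons, against 5995, 638, 7, 0 and 0. The sign of the fold change of a gene was another than in the 12-library fit in 1 of 220 refits in Gli1Het NSCs, 0 of 220 in Gli1Null NSCs, 5 of 220 on cuprizone between genotypes, 18 of 220 on the control diet and 2 of 210 in the interaction. With 3 pools per group, the levels of Anxa1 and Anxa3 in controls rest on few counts, and the standard errors of these genes also take in the spread of Gli1Het cuprizone replicate 2.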
